A study of Mus musculus with 6 samples.

Results

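Cd28 and 7 genes of costimulatory, coinhibitory or adhesion molecules (Cd80, Cd86, Cd40, Cd83, Cd274, Pdcd1lg2 and Icam1) were described in iBMDM, a mouse line of immortalised macrophages from bone marrow, with the genotype WT or A20KO. A20 is the ubiquitin-editing protein encoded by Tnfaip3 and restrains NF-kB signalling. The 8 genes, of 21047 in the deposited table, were chosen by name after Cd28 RNA had been seen to be higher in the A20KO libraries of this same comparison, so their values between the genotypes are a description and no test of them is given. There were 3 RNA sequencing libraries per genotype, and the labels give no treatment. They do not say how A20 was disrupted, whether the A20KO line is a single clone, or whether replicates were grown as separate cultures. The p-values given for other genes therefore weigh the difference between the genotypes only against the spread of these libraries, which may be technical. They do not extend to other clones or cultures. All 8 genes had a mean of at least 1 normalized read and were among the 17376 genes kept for testing.

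CD28 is the receptor through which T cells receive their second, costimulatory signal. It binds CD80 (B7-1) and CD86 (B7-2) on antigen-presenting cells, and the related receptor CTLA4 binds the same ligands and restrains the response. Macrophages are usually described from the ligand side of this contact: they can display CD80 and CD86, the TNF-family receptor CD40, the PD-1 ligands PD-L1 (Cd274) and PD-L2 (Pdcd1lg2), and ICAM-1, which the integrin LFA-1 on T cells holds.

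Upstream sequences were at hand for 4 of the 8 genes. Those of 3 ligand genes are shown: Cd80 and Cd274, which were lower in A20KO, and Icam1, which overlapped between the genotypes. Each is the 250 bases before the transcription start in RefSeq (GRCm38.p6), 5′ to 3′ on the plus strand, where all 3 genes lie. Capitals mark the matches, on either strand, to a wide NF-kB pattern (GGG, any 5 bases, then CC), a symmetric NF-kB pattern (GGAANTTCC), a STAT pattern (TTCNNNGAA), a paired interferon regulatory factor pattern (GAAA, any 2 bases, then GAAA) and TATAAA.
Cd80, chr16:38458683-38458932: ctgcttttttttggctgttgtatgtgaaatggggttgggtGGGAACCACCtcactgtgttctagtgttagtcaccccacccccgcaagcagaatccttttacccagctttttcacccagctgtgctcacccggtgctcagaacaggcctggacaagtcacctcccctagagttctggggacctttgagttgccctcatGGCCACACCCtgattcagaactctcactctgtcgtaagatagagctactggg
Cd274, chr19:29367188-29367437: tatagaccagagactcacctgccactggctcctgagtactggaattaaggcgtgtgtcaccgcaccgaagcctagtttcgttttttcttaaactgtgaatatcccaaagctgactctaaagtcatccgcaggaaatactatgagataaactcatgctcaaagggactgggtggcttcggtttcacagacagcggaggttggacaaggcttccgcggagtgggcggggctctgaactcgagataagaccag
Icam1, chr9:21015690-21015939: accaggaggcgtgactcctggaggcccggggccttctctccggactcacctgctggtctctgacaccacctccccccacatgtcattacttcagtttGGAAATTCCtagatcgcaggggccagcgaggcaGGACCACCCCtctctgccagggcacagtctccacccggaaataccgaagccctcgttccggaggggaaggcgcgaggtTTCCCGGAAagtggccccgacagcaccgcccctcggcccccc
Icam1 held 1 match to the symmetric NF-kB pattern, 1 to the wide one and 1 to the STAT pattern, and these did not overlap. Of 32851 RefSeq windows of the same length, 0.813% hold the symmetric pattern, 45.8% the wide one and 7.02% the STAT pattern. Cd80 held 2 matches to the wide NF-kB pattern and none to the others. Cd274 held none of the 5 patterns, of which the paired interferon regulatory factor pattern is in 2.98% of windows and TATAAA in 12.4%. Of the 250 bases of the Cd274 window, 185 lie in annotated exons. Pdcd1lg2, whose window is not shown, held 1 match to the wide pattern. The RefSeq start of Cd80 lies 3372 bases downstream of the first base of the gene in the deposited table. A match describes letters only, and no binding was measured.

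The libraries held 13308840 to 15130697 reads assigned to genes. The targeted gene Tnfaip3 was lower in the A20KO libraries but still present, with 389, 382 and 437 normalized reads in WT and 194, 196 and 189 in A20KO (limma adjusted p = 7.1e-14). Differences between the genotypes were common: with limma, 39.8% of tested genes passed an adjusted p of 0.05, with 20.3% higher and 19.6% lower in A20KO, and in 46.9% the libraries of the genotypes did not overlap. The macrophage label was checked on 12 marker genes, all of which had reads in A20KO and 11 of which had reads in WT. Their summed level was 35581 to 36259 normalized reads in WT and 33279 to 33553 in A20KO.

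Cd28 was near the bottom of the 8 genes in WT and at the top in A20KO. It had 24.3, 3.81 and 24.1 normalized reads in the WT libraries, from 25, 4 and 23 reads, and 1314, 1326 and 1379 in the A20KO libraries. The genotypes were far apart, the A20KO libraries were close to each other, and WT replicate 2 was the lowest of all. The means were 17.4 ± 11.8 (SD, n = 3) and 1340.0 ± 34.7 (SD, n = 3), a ratio of 77.0. The WT mean rests on 52 reads, and the ratio varied with the WT libraries: it was 55.4 without WT replicate 2, 95.9 without WT replicate 1 and 95.45 without WT replicate 3. On the scale of log2(normalized reads + 1), used for every log2 difference here as A20KO minus WT, the difference was 6.53. Of the 17376 tested genes, 10 had a larger rise. In bulk RNA, fewer cells of a type and less RNA per cell cannot be told apart, so these levels do not show whether all or some cells of the A20KO line carried Cd28 RNA. Cd28 (ENSMUSG00000026012) lies on the plus strand of chromosome 1 from 60716800 to 60773359 in mm10. None of its exon bases is overlapped by another annotated gene, and none of its 31-base words occurs in another gene.

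**Figure D1:**
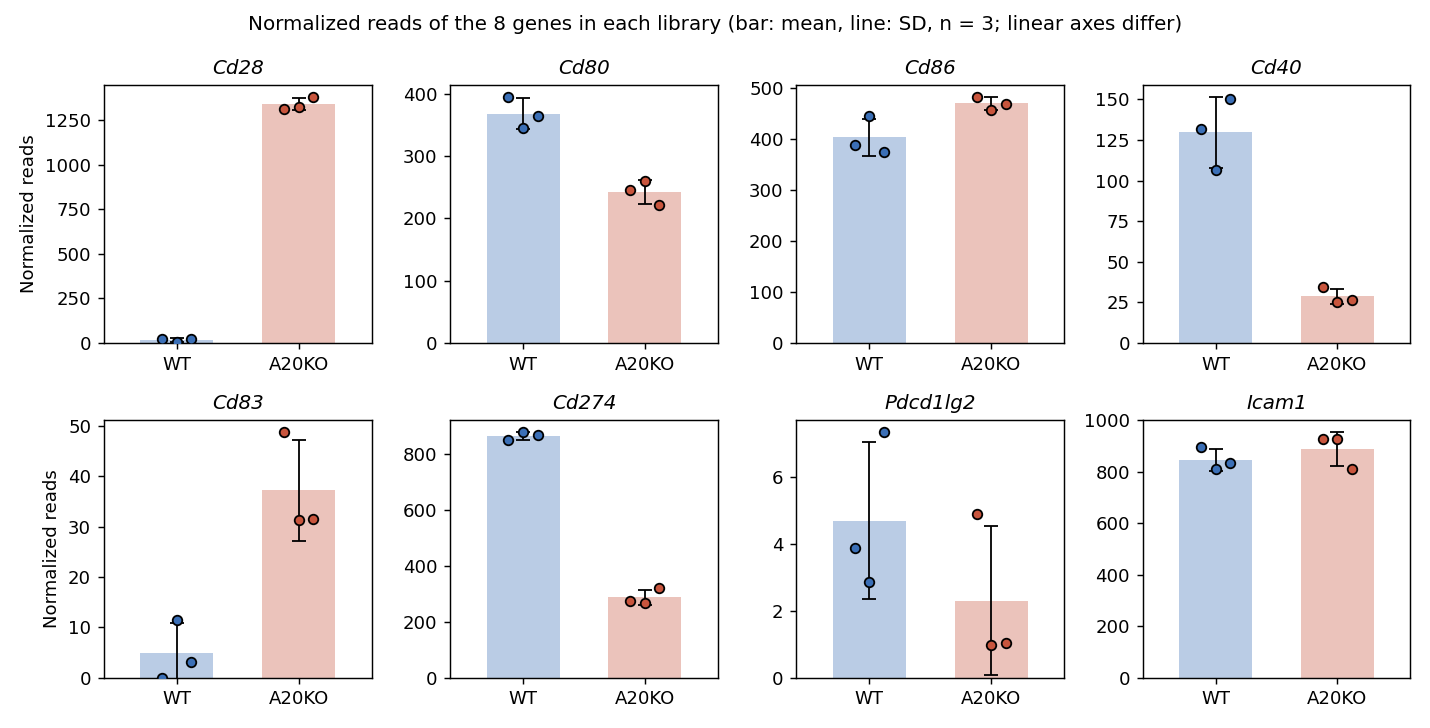
Normalized reads of the 8 genes (vertical axes, linear and different for each gene) in the WT and A20KO libraries (horizontal axes); points are libraries, bars means and lines the SD, n = 3. Cd28 is at most 24.3 in WT and at least 1314 in A20KO, Cd80, Cd40 and Cd274 are lower in every A20KO library, and Pdcd1lg2 and Icam1 overlap.

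The 2 B7 ligands of CD28 were present in both genotypes and differed in opposite directions. Cd80 had 394, 345 and 364 normalized reads in WT and 245, 259 and 221 in A20KO. Every A20KO library lay below every WT library, and the means were 368 ± 24.7 and 242 ± 19.5 (SD, n = 3), a log2 difference of -0.61. Cd86, the ligand that resting antigen-presenting cells usually carry, had 388, 444 and 374 normalized reads in WT and 481, 457 and 469 in A20KO. Every A20KO library lay above the WT libraries, although WT replicate 2 came close to A20KO replicate 2, and the means of 402 ± 36.9 and 469 ± 12.1 (SD, n = 3) gave a log2 difference of 0.22. Within single libraries, the ratio of Cd86 to Cd80 in normalized reads per kilobase of gene length was 0.997 to 1.30 in WT and 1.78 to 2.15 in A20KO. Both genes are on chromosome 16, 1.79 Mb apart: Cd80 (ENSMUSG00000075122) on the plus strand from 38455561 to 38496335, and Cd86 (ENSMUSG00000022901) on the minus strand from 36603869 to 36666081.

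The order of receptor and ligand RNA was the opposite in the A20KO line. Per kilobase, the WT libraries held 24.9 to 149.6 times as much Cd80 as Cd28 RNA, and 25.96 to 194.8 times as much Cd86. In A20KO the level of Cd28 was 3.10 to 3.78 times that of Cd80, and 1.63 to 1.76 times that of Cd86. The receptor and both ligands were measured in the same A20KO libraries, which does not show that they were in the same cells.

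The PD-1 ligands are neighbours on chromosome 19, with 22.8 kb between them, and they differed widely in level. Cd274 (ENSMUSG00000016496, 29367455 to 29388095, plus strand) had 850.2, 879 and 867 normalized reads in WT and 275, 269 and 319 in A20KO. The libraries of each genotype were close together and the genotypes were well apart, with means of 865 ± 14.4 and 288 ± 27.5 (SD, n = 3) and a log2 difference of -1.59. Relative to Cd80, its level per kilobase was 2.21 to 2.60 times as high in WT and 1.06 to 1.48 times in A20KO. Of its exon bases 14.1% are also covered by an annotated gene on the opposite strand, for which the table has no row, and the sources used here do not say whether counting used strand. Pdcd1lg2 (ENSMUSG00000016498, 29410919 to 29471157, plus strand) was near the detection limit, with 4, 3 and 7 reads in WT and 5, 1 and 1 in A20KO. The genotypes overlapped, so a difference was not detectable at this depth. The ratio of its means, A20KO over WT, was 0.490, and 0.216 without A20KO replicate 1.

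CD40 receives the CD40 ligand signal of T cells and passes it through TRAF adaptors to NF-kB. Cd40 (ENSMUSG00000017652, chromosome 2, 165055627 to 165072948, plus strand) had 132, 107 and 150.0 normalized reads in WT and 34.1, 25.4 and 26.3 in A20KO. The lowest WT library was well above the highest A20KO library. The means were 129.6 ± 21.7 and 28.6 ± 4.81 (SD, n = 3), a log2 difference of -2.14, the largest fall among the 8 genes.

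CD83 is a surface molecule best known from mature dendritic cells and activated lymphocytes. Cd83 (ENSMUSG00000015396, chromosome 13, 43784775 to 43803132, plus strand) had 0, 11.4 and 3.15 normalized reads in WT and 48.8, 31.3 and 31.5 in A20KO. All A20KO libraries were higher, but the WT libraries varied widely around a mean of 4.86 ± 5.91 (SD, n = 3), against 37.2 ± 10.03 (SD, n = 3) in A20KO. The ratio of means was 7.65 with all libraries, 23.65 without WT replicate 2, which held 12 of the 15 WT reads, and 5.10 without WT replicate 1.

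Icam1 (ENSMUSG00000037405, chromosome 9, 21015985 to 21028817, plus strand) was high in both genotypes and did not separate them. It had 894, 809 and 834 normalized reads in WT and 925, 927 and 811 in A20KO. A20KO replicate 3 lay within the WT range, and the means of 846 ± 43.6 and 888 ± 66.4 (SD, n = 3) gave a log2 difference of 0.07. Gm47079, which covers 11.7% of its exon bases on the opposite strand, had at most 3.91 normalized reads in any library.

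Of the 8 genes, 3 lay higher in every A20KO library (Cd28, Cd83 and Cd86), 3 lay lower in every one (Cd274, Cd40 and Cd80) and 2 overlapped. Over all tested genes 24.5% lay higher and 22.4% lower without overlap, and since the 8 were chosen on this contrast nothing is read from their counts. Their median log2 difference was -0.27, beside 0.01 over all tested genes.

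**Figure D2:**
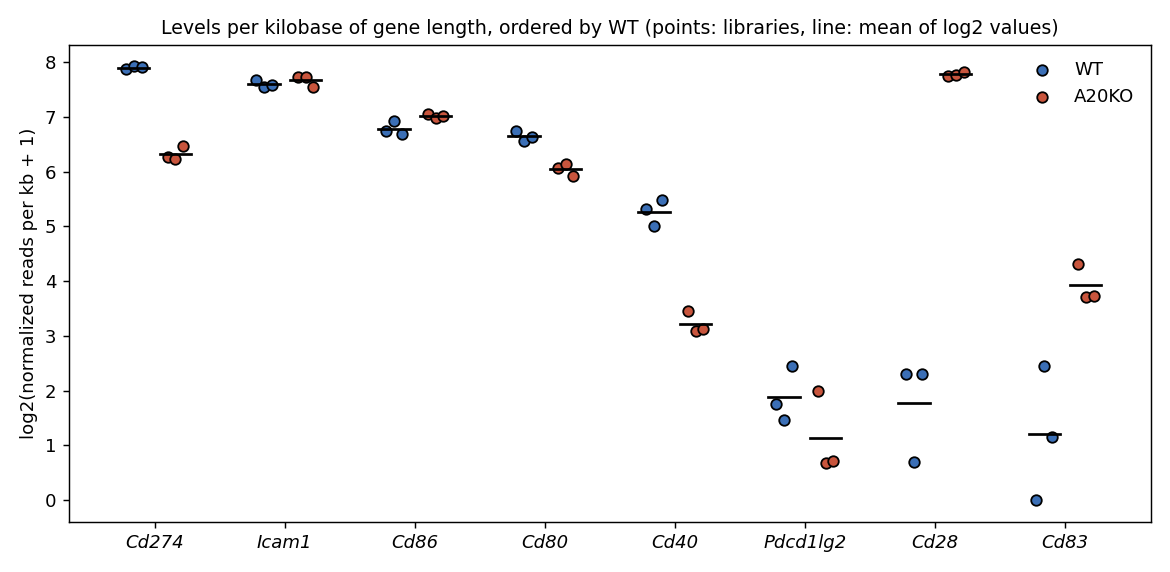
Levels of the 8 genes as log2(normalized reads per kb + 1) (vertical axis), ordered by their WT mean (horizontal axis); points are libraries and lines the mean of the log2 values. Cd28 stands beside Pdcd1lg2 and Cd83 in WT and beside Icam1 in A20KO.

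Levels per kilobase of gene length gave a different order in each genotype. In WT, Cd274 came first at 238.9 ± 3.98 normalized reads per kb (SD, n = 3) and Icam1 followed at 193.9 ± 9.99. Cd86 at 109.9 ± 10.1 and Cd80 at 99.3 ± 6.67 overlapped, and Cd40 stood below them at 38.0. Pdcd1lg2, Cd28 and Cd83 came last at 2.85, 2.84 and 1.89, within each other's spread. In A20KO, Cd28 came first at 218.9 ± 5.65, with its lowest library at 214.7 just above the highest of Icam1 at 212.7. Cd86 at 128.1 ± 3.30, Cd274 at 79.5 ± 7.59 and Cd80 at 65.2 ± 5.27 followed without overlap between neighbours. Cd83 at 14.5 stood above Cd40 at 8.40, the reverse of WT, and Pdcd1lg2 came last at 1.40. Among all tested genes, the level of Cd28 per kb exceeded 19.4% of genes in WT and 78.5% in A20KO, that of Cd274 exceeded 79.9% and 59.6%, and that of Icam1 exceeded 76.2% and 77.2%.

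Cd28 lies in a cluster with the related receptors Ctla4 and Icos, and the genes around it were compared next. Icos, the inducible costimulator, 204.6 kb downstream of Cd28, had no read in WT and 7.81, 5.87 and 9.46 normalized reads in A20KO. Taking 3 reads in all as the floor for the WT group, it was at least 7.75-fold higher in A20KO (limma adjusted p = 2.7e-04). That bound covers counting error only. Icos passed the filter on low values only through its A20KO reads, so it could only come out higher there. Its p-value is therefore no separate support. Ctla4, between them, had no WT read and 0, 1 and 1 reads in A20KO, too few to test. The noncoding transcripts 2310016D23Rik and Gm37198, 5.48 and 5.99 kb downstream on the strand of Cd28, had no read in WT and 4.88 to 10.7 normalized reads in the A20KO libraries. They were at least 8.09-fold and 7.08-fold higher in A20KO on the same floor (limma adjusted p = 2.6e-04 and 5.6e-04). Like Icos, they passed the filter only through their A20KO reads, so the same limit holds for their p-values. Gm37198 lies within the span of 2310016D23Rik, so they are not independent. Gm11579, on the opposite strand 3.31 kb downstream, had 1, 0 and 5 reads in A20KO and none in WT (limma adjusted p = 0.32). In the A20KO libraries all of these downstream transcripts were far below Cd28.

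Upstream of Cd28, the nearest gene, the pseudogene Eif4a-ps4 at 11.65 kb, had 1519 to 1709 normalized reads in WT and 1531 to 1602 in A20KO and did not pass (limma adjusted p = 0.42). It shares 97.4% of its 31-base words with other genes, so its counts are uncertain. Raph1, which encodes an actin regulator, 149.7 kb upstream on the opposite strand, rose from 252, 254 and 272 normalized reads in WT to 417, 393 and 416 in A20KO (limma adjusted p = 2.3e-08). The pseudogene Gm11576 had 3 reads in A20KO replicate 3 and none elsewhere. Raph1 thus differed by 0.655 on the log2 scale, against 6.53 for Cd28.

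**Figure D3:**
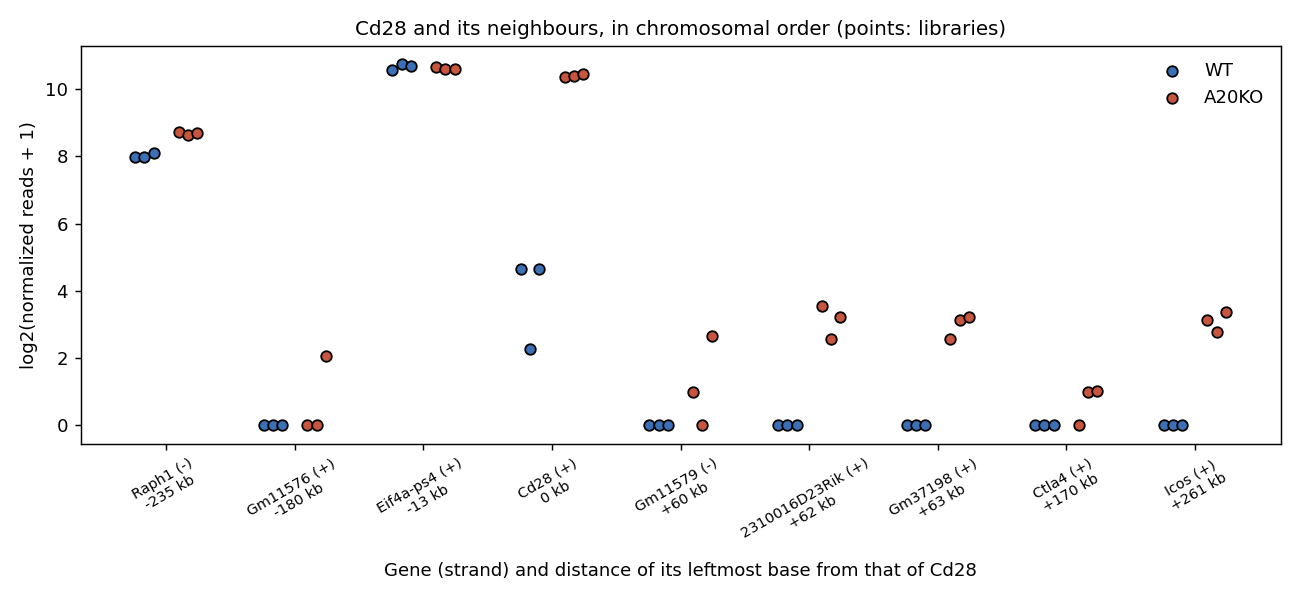
Cd28 and its neighbours in chromosomal order (horizontal axis, with strand and the distance of each gene's leftmost base from that of Cd28) as log2(normalized reads + 1) (vertical axis); points are libraries. Icos, 2310016D23Rik and Gm37198 have reads in every A20KO library and in no WT library, while Eif4a-ps4 overlaps between the genotypes.

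The remaining receptors of the CD28 family were near the detection limit. Btla, the receptor of HVEM, had no WT read and 5, 2 and 1 reads in A20KO (limma adjusted p = 0.10). Pdcd1, which encodes PD-1, was not among the 21047 genes analysed here. Of the 4 receptors on this list 2 were tested, Icos and Btla, and Icos alone passed. Both were kept by the filter on low values only through their A20KO reads, so nothing is read from this count.

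Genes with a pattern most like that of Cd28 were ranked by the root mean square difference of their mean-centred log2 values over the 6 libraries, among 13271 genes. With 2 genotypes this ranks mainly genes with a rise of like size. Frmd4b, a scaffold protein gene, was nearest at 0.276, with 1.94, 0 and 2.10 normalized reads in WT and 204, 180.0 and 217 in A20KO. Clec10a, a lectin of alternatively activated macrophages, followed at 0.447, with 3.88, 0.953 and 3.15 in WT and 408, 433 and 368 in A20KO, and shares 14.8% of its 31-base words with other genes. Both, like Cd28, had their lowest WT value in replicate 2, which the ranking over all 6 libraries favours and which rests on few reads. They were the only 2 genes within 0.5, and Nptxr, Agap2 and Arl4c followed at 0.717, 0.781 and 0.804. Arl4c had 6.79, 2.86 and 2.10 normalized reads in WT and 385, 340.4 and 298 in A20KO, and Nptxr and Agap2 had 1 WT read each. These genes were picked for their likeness to Cd28, so their rise is no separate result, and neither is the low WT replicate 2 of Frmd4b and Clec10a.

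CD28 is known mainly from T cells, and markers of T cells were set beside it. Of 20 T cell markers 7 were among the genes analysed here; Cd3d, Cd3e, Cd3g, Cd8a, Zap70 and Trac were not. Cd4 had 2 reads in A20KO replicate 2 and none elsewhere, and Cd247, which encodes the zeta chain of the T cell receptor complex, had no read in any A20KO library. The summed level of the 7 was 480.4 to 528 normalized reads in WT and 392.2 to 403.4 in A20KO, most of it Il7r. Of the 4 that could be tested, Cd5 and Lat rose by 1.17 and 1.17 (limma adjusted p = 0.0019 and 3.9e-04), Il7r fell by 0.66 (limma adjusted p = 2.2e-08) and Lck did not pass (limma adjusted p = 0.82). Cd5 reached at most 56.7 normalized reads and Lat at most 66.5, beside at least 1314 for Cd28 in the same libraries.

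Markers of other cells that can carry CD28 or its ligands were read in the same way. Eomes was the only one of 9 natural killer cell markers among the genes analysed here, with at most 4.89 normalized reads, and the 9 mast cell and eosinophil markers summed to at most 6.85 in any library. Dendritic cell markers summed to 81.5 to 102.9 in WT and 138.7 to 172.7 in A20KO. Of 5 tested, Zbtb46 and Batf3 rose by 1.10 and 0.85 (limma adjusted p = 4.1e-05 and 0.0021). Xcr1, Fscn1 and Itgae did not pass (limma adjusted p = 0.92, 0.36 and 0.49). Over all tested genes 39.8% passed the threshold, so nothing about dendritic cells is read from 2 of 5. Flt3 and Clec9a, too low to test, had at most 2.10 in any library. The part of this list in the higher Cd83 and Cd86 values was not tested. The B cell and plasma cell list summed to 1942 to 2079 in WT and 1888 to 1977 in A20KO, most of it Sdc1, and Cd79b fell by 1.14 (limma adjusted p = 3.9e-08). Ms4a1 and Pax5 were not among the genes analysed here.

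**Figure D4:**
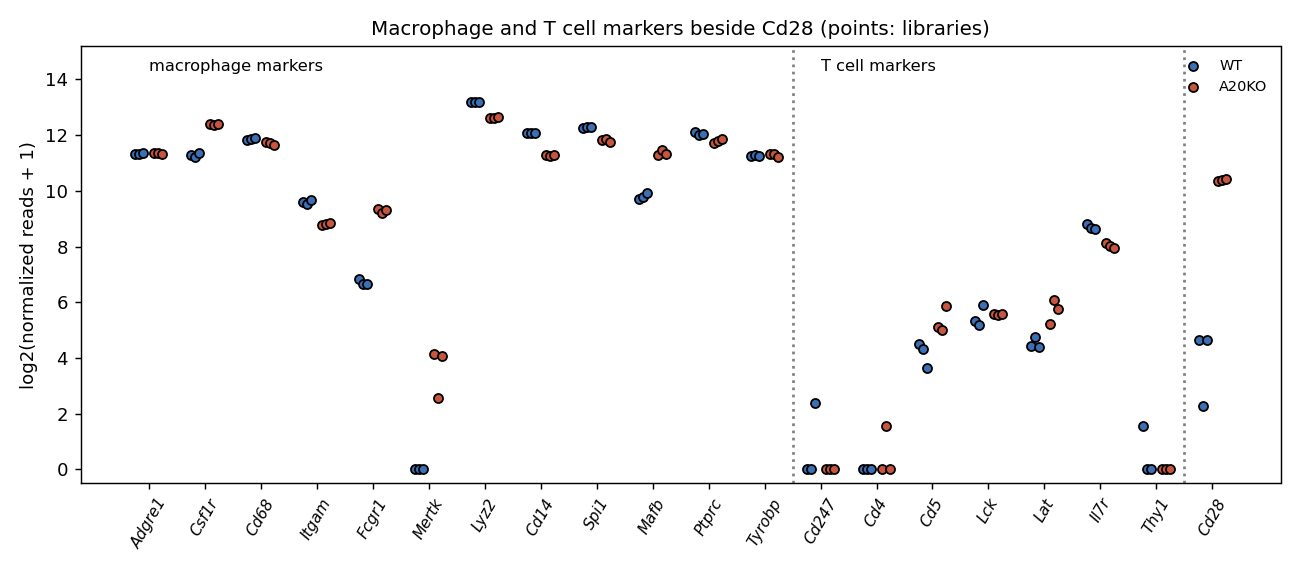
Macrophage markers, the 7 T cell markers with a row in the table, and Cd28 (horizontal axis) as log2(normalized reads + 1) (vertical axis); points are libraries. Cd247, Cd4 and Thy1 are at 0 in most libraries of both genotypes, while Cd28 in A20KO reaches the range of the macrophage markers.

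Other genes of the costimulatory network, none of them among the 8, were read from 8 lists of 113 genes. Of the 86 tested, 22 rose and 36 fell, which is 67.4% past the threshold, beside 39.8% of all tested genes and 48.2% of those with a mean of at least 5 normalized reads. Their median log2 difference was -0.09. The lists were chosen with earlier results of these data known, so no result about a pathway is read from such shares. The counts include Icos and Grap2, which passed the filter on low values only through the genotype in which they had reads. Without the variance trend in limma, 14 of the 86 genes rose and 31 fell. Over all tested genes the counts then went from 3519 higher and 3398 lower to 2440 and 2335.

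The signalling genes on the T cell side of CD28 were largely present in this macrophage line: 26 of 28 were in the table. Of 25 tested, 7 were higher and 11 lower in A20KO, which is 72.0% past the threshold. Over all tested genes the share was 39.8%, and 48.2% over those with a mean of at least 5 normalized reads. Lcp2, the adaptor SLP-76, fell by 1.20 and the ubiquitin ligase Cbl by 0.49 (limma adjusted p = 3.5e-30 and 7.6e-17). The kinase Tec rose by 0.73 (limma adjusted p = 3.8e-10). Prkcq, the protein kinase C theta gene, had 4 reads in all. Chosen after its values were seen, Grap2, which encodes the CD28-binding adaptor Gads, had 14.6, 32.4 and 38.8 normalized reads in WT and no read in A20KO. Taking 3 reads in all as the floor for A20KO, it was at least 28.35-fold lower there, a bound that covers counting error only. Grap2 passed the filter only through its WT reads, so no test of it is given, although it is counted among the 11 lower genes.

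Relatives of the B7 ligands were also measured. Cd276 (B7-H3) fell from 425.9 ± 8.57 to 217.5 ± 29.1 normalized reads (SD, n = 3; limma adjusted p = 8.6e-13), with 11.4% of its exon bases covered on the opposite strand. Icosl, the ligand of ICOS, and Vsir, which encodes VISTA, did not pass, with log2 differences of 0.26 and -0.08 (limma adjusted p = 0.14 and 0.23). Thus 1 of 3 tested genes fell and none rose, too few to set beside the 39.8% of all tested genes past the threshold.

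Around PD-L1 and CD86, genes known for the turnover of these proteins changed in 6 of 9 cases, 2 higher and 4 lower. That is 66.7%, beside 39.8% of all tested genes and 48.2% of those with a mean of at least 5 normalized reads. Cmtm6 and Cmtm4, named after their values were seen, protect PD-L1 protein from degradation. They fell by 0.36 and 0.24 (limma adjusted p = 4.0e-05 and 5.4e-04), the same direction as Cd274 RNA. The sheddase gene Adam17 and the ubiquitin ligase gene Cop1 fell by 0.50 and 0.45, and Adam10 rose by 0.41 (limma adjusted p = 1.2e-15, 2.4e-06 and 1.2e-12). Stub1, a ubiquitin ligase gene, rose by 0.16 (limma adjusted p = 0.044), a call that ended under 8 of 16 alternatives and rests on a gene with 42.3% of its exon bases overlapped. Marchf8, a relative of the ligase that removes CD86 from the surface, did not pass (limma adjusted p = 0.71).

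Around CD40, 5 of 12 signalling genes fell and 1 rose. Over all tested genes 39.8% passed the threshold, and 48.2% of those with a mean of at least 5 normalized reads. No result about the CD40 pathway is read from this count. Traf1, an adaptor of the CD40 complex, fell from 135, 121 and 110.1 normalized reads to 16.6, 17.6 and 15.8 (limma adjusted p = 4.1e-16), a log2 difference of -2.80 beside -2.14 for Cd40. Nfkb2, of the noncanonical NF-kB route, fell by 0.84, and Jak3 rose by 0.31 (limma adjusted p = 1.1e-17 and 3.4e-04). Other TNF-family costimulators went both ways, with 2 of 8 tested higher and 2 lower. Over all tested genes 20.3% were higher and 19.6% lower, and nothing is read from a count over 8 genes. Tnfrsf9, which encodes 4-1BB, fell by 3.04, and its ligand Tnfsf9 rose by 0.37 (limma adjusted p = 5.5e-14 and 0.0086). Tnfrsf8 (CD30) fell by 2.17 (adjusted p = 0.0035, and 0.12 in limma without the variance trend), and by 1.28 without A20KO replicate 3. Tnfsf14, the ligand LIGHT, rose from 12.6, 3.81 and 0 to 38.0, 25.4 and 18.9 normalized reads (limma adjusted p = 0.014), but did not pass without WT replicate 2 (0.12), with a pseudocount of 0.1 (0.22) or without the variance trend (0.12). Its log2 difference was 2.76 with all libraries, 3.64 without WT replicate 1 and 1.76 without WT replicate 3.

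Around ICAM-1, 6 of 16 tested adhesion genes rose and 7 fell, which is 81.2% past the threshold. Over all tested genes the share was 39.8%, and 48.2% over those with a mean of at least 5 normalized reads. Itgb2, the shared beta chain of the ICAM-1 receptors LFA-1 and Mac-1, fell from 5565, 5607 and 5649 normalized reads to 2601, 2537 and 2580 (limma adjusted p = 5.3e-35). Its partners Itgal and Itgam, named after their values were seen, fell by 0.95 and 0.77 (limma adjusted p = 3.9e-26 and 3.1e-14). Itgax, which also pairs with Itgb2, rose by 1.33 (limma adjusted p = 5.6e-04), from at most 21.0 to at least 29.3 normalized reads. Icam1, in contrast, overlapped between the genotypes, while its relative Icam2 rose by 1.39 (limma adjusted p = 8.8e-13). Ezr, which links ICAM proteins to actin, fell by 1.35, and Itga4, a chain of VLA-4, rose by 1.13 (limma adjusted p = 1.7e-35 and 2.0e-32).

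Among other checkpoint ligands and receptors 3 of 11 tested genes rose and 6 fell. That is 81.8% past the threshold, beside 39.8% of all tested genes and 48.2% of those with a mean of at least 5 normalized reads. Havcr2, which encodes TIM-3, rose by 1.53 and Cd47, a signal that restrains phagocytosis, fell by 0.84 (limma adjusted p = 1.4e-12 and 9.3e-21). Lilrb4a also fell (limma adjusted p = 2.9e-34), but it shares 55.7% of its 31-base words with other genes and its counts are uncertain. Cd200r1 rose by 0.23 (limma adjusted p = 0.035) and did not pass without WT replicate 1 (0.13) or 3 (0.056), without A20KO replicate 1 (0.15) or 3 (0.11), with DESeq2 (0.11) or without the variance trend (0.11).

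**Figure D5:**
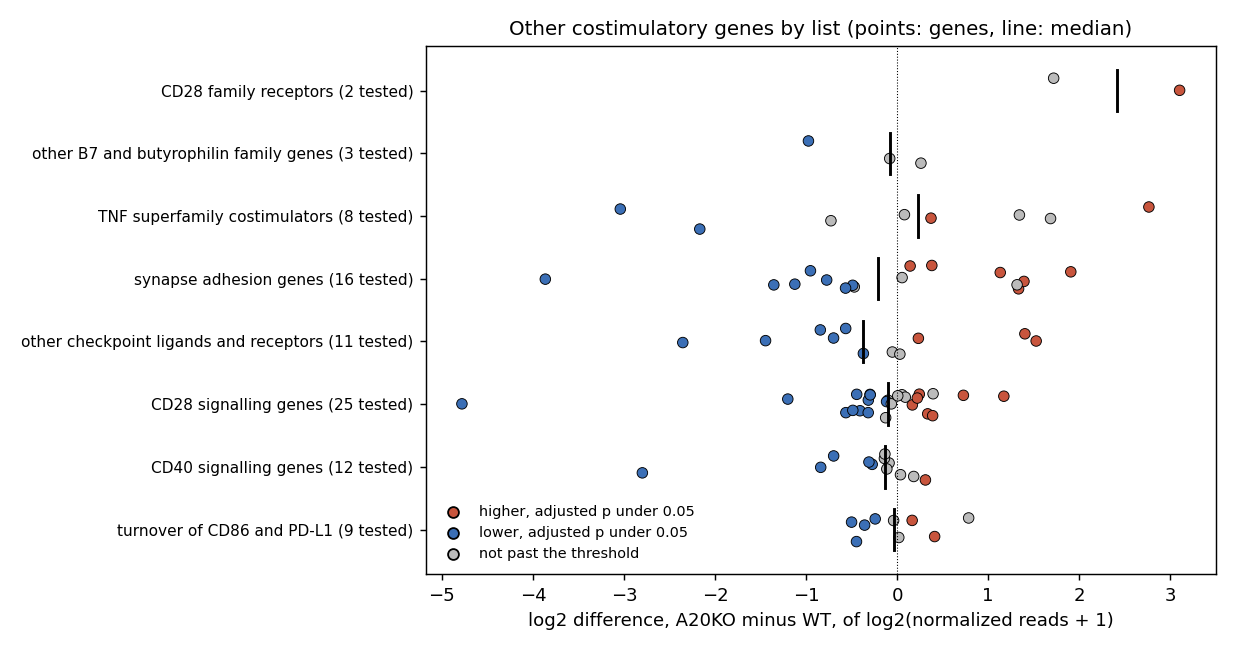
Log2 difference, A20KO minus WT, of log2(normalized reads + 1) for each tested gene (horizontal axis) in the 8 lists (vertical axis, with the number tested); colours give the limma call and lines the median of a list. Of the 86 genes, 22 are marked higher and 36 lower, and 6 of the 8 lists hold genes marked in both directions.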

How the data were processed

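RNA of 6 iBMDM samples (3 WT, 3 A20KO) was extracted with Trizol, and per the labels' protocols a SMARTer kit for mRNA was used to prepare libraries. Reads refer to mm10, per the submitters' processing notes. The sources used here give no aligner, counter, strand setting or annotation release. Per the file headers, the authors' 1 table of 21047 genes holds a signal that they normalized for each library but did not divide by gene length. It also holds a log2 fold change, p-value and adjusted p-value that the authors computed per gene, which were not used here. Every value (100%) was a whole multiple of that of 1 read within 0.001 reads, so reads could be recovered from the signal with 1 size factor for each library (0.9519 to 1.0491).

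Genotypes were compared on log2(normalized reads + 1) over genes with a mean of at least 1 (17376), with limma 3.58.1 (trend, robust) in R 4.3.3, Benjamini-Hochberg adjustment over all tested genes and a threshold of 0.05. Differences on this scale understate the change of low genes. Alternatives were pseudocounts of 0.1 and 5, no filter, a minimum mean of 5, quantile normalization, no variance trend, edgeR 4.0.16 and DESeq2 1.42.0 on recovered reads, a replicate block, and leaving out each library. The scripts were tested on simulated data. Replicates differed by more than sampling noise (chi-square per degree of freedom 2.67 to 3.6).

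The 8 genes and all lists were chosen with earlier results of these data known. Besides the 8 genes, the rule named the CD28 family, the nearest 3 genes on each side of Cd28, up to 4 genes per list by adjusted p with 2 per direction, the 5 genes most like Cd28, and Tnfaip3. Markers, and Icosl, Vsir, Prkcq and Marchf8, were named outside it after their values were seen. Some genes of the lists are counted but not reported here by name. GENCODE M21 gave exon overlap and shared 31-base words. Upstream sequences came from RefSeq (GRCm38.p6), with entries for 4 of the 8 genes.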

Additional observations from a re-analysis of the deposited data

How the results depend on the processing

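Of the 16 alternatives, 13 bore on the log2 differences of the 8 genes (the filters and the variance trend do not change them), and 11 gave one for Pdcd1lg2, which was too low for edgeR. Each of the 8 kept its sign under these: 5.73 to 6.93 for Cd28, -0.66 to -0.54 for Cd80, 0.17 to 0.30 for Cd86, -2.27 to -2.00 for Cd40, 2.24 to 4.55 for Cd83, -1.67 to -1.54 for Cd274, -1.42 to -0.42 for Pdcd1lg2 and 0.04 to 0.13 for Icam1. Of 37 other named genes, 5 changed their call: Tnfsf14, Tnfrsf8, Cd200r1 and Stub1 as above, and Btla, which passed with no filter (limma adjusted p = 0.039) and without the variance trend (0.037). The counts of higher list members moved most without the variance trend: 14 over all lists, 2 in the CD28 family, 1 each among other B7 genes, TNF-family costimulators (with 1 lower), checkpoint genes and turnover genes, and 3 among CD28 signalling genes. The CD28 family had 2 higher with no filter and 0 with a minimum mean of 5 or edgeR (TMM or RLE), for which Icos was too low to test. There was 1 higher TNF-family gene and 1 higher turnover gene with a pseudocount of 0.1, and 1 higher checkpoint gene and 1 higher turnover gene with DESeq2. Leaving out 1 library gave 17 to 21 higher and 34 to 35 lower list members, with 1 to 3 higher checkpoint genes, 1 to 2 higher CD40 signalling genes and 1 to 2 higher turnover genes. The cause was not tested. With the replicate block 3432 genes were higher and 3297 lower, 21 and 35 list members passed, and 1 turnover gene was higher. The deviations of same-numbered libraries correlated at -0.032, 0.005 and -0.017 over 13815 genes and not every library correlated best with its own number, so the samples share only a number. Pdcd1lg2, Ctla4, Btla and the WT levels of Cd28 and Cd83 rest on few reads, which limits their precision.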
